A study of Mus musculus with 18 samples.

Results

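Hepatokines are proteins that the liver secretes into the blood and that act on metabolism in the liver itself or in other organs. The 9 hepatokine genes described here (Fgf21, Angptl4, Angptl6, Ahsg, Fetub, Gdf15, Inhbe, Lect2 and Enho) were chosen by name, and their rows were taken from a table of 19057 gene symbols measured by RNA sequencing of mouse liver. All 9 of 9 were in the table and all 9 passed the filter on low values, among 10822 genes tested. The table held 18 liver libraries of ICR mice, 3 in each of 6 groups, from a study of gut microbiota and the testis in a model of type 1 diabetes. Every library came from liver labelled as 10 weeks of age, and the study used males. Con animals were controls given saline and a regular diet. AOS animals received alginate oligosaccharide, a breakdown product of the seaweed polysaccharide alginate, at 10 mg/kg. STZ animals received streptozotocin, a compound toxic to the insulin-producing beta cells of the pancreas, as a single injection. STZ+AOS animals received both. A10-FMT animals received streptozotocin and then, by mouth, the gut microbiota of animals that had received the same 10 mg/kg of AOS. Con-FMT animals received streptozotocin and then microbiota from control donors, which had been dosed with water. Small intestinal contents of the donors of each kind were pooled before transplantation, so each kind of transplant was 1 pool. The methods describe no oral vehicle for STZ animals. In comparisons with STZ the microbiota and the oral dosing itself therefore cannot be told apart. The study's methods describe Con, STZ, A10-FMT and Con-FMT, while AOS and STZ+AOS are known here only from the sample labels. The labels do not say that the 3 libraries of a group came from separate animals, so p-values measure the spread between these libraries, which may be technical.

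The members belong to several protein families. FGF21 is an endocrine fibroblast growth factor that needs the co-receptor beta-Klotho (Klb), and its gene is a known target of PPARA, the nuclear receptor of the fasting response, and of ATF4, the transcription factor of the amino acid and stress response. GDF15 is a stress-induced hormone that acts through the GFRAL receptor of the hindbrain. ANGPTL4 inhibits lipoprotein lipase and thereby raises plasma triglycerides, and ANGPTL6 is another angiopoietin-like protein. Fetuin-A (Ahsg) and fetuin-B (Fetub) are abundant plasma proteins of the type 3 cystatin family: fetuin-A binds calcium phosphate and can inhibit the insulin receptor, and fetuin-B inhibits ovastacin, a protease of the egg. Inhbe encodes the inhibin beta E subunit, from which activin E is made. LECT2 was described first as a chemotactic factor, and Enho encodes the peptide adropin.

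Values are RPKM, in which read numbers are divided by transcript length and by library size. Differences are on the log2(RPKM + 1) scale, fitted with limma in 1 model of the 6 groups, and a gene was called at a Benjamini-Hochberg adjusted p under 0.05 over all 10822 genes. RPKM give no library totals, but the lowest values of 387 genes with a single transcript implied about 12900000 reads per library (quartiles 11200000 to 14000000). Major urinary protein genes took 23.7% to 35.9% of the summed RPKM in Con, 0.0327% and 0.0274% in STZ libraries 1 and 2 and 19.2% in STZ library 3, so STZ library 3 stood apart from the other STZ libraries. Other groups were uneven too. The share was 0.131%, 0.123% and 4.53% in STZ+AOS libraries 1, 2 and 3. It was 2.77%, 16.45% and 14.3% in those of Con-FMT. A10-FMT had 5.65% to 12.3% and AOS 18.1% to 26.2%. All 7 hepatocyte markers were detected, with a summed level of 46879 to 66646 RPKM in Con and 39557 to 48569 in STZ. Most of the sum was Alb (24367 to 37253 and 25070 to 36492 RPKM), and Serpina1c held 10167 to 11795 and 881 to 5428. In STZ against Con 3 of the 7 were called higher and 3 lower (median -0.0079), beside 30.8% and 5.25% of all genes. The 4 adipocyte markers summed to at most 0.32 RPKM in any library and 1 of them was at 0 throughout. Summed levels of the 6 stellate cell and fibroblast markers were 67.9 to 79.3 RPKM in Con and 107 to 128 in STZ, mostly from Dcn (61.4 to 71.6 and 99.6 to 117 RPKM), and those of the 7 Kupffer cell markers 62.8 to 94.5 and 93.8 to 206. Singly, 2 of the 6 stellate cell and fibroblast markers and 1 of the 7 Kupffer cell markers were called higher, and none lower. Of the 6 pancreas markers only Cela1 was above 0.49 RPKM in Con and STZ (30.84 to 40.5 and 2.96 to 8.73 RPKM), and it was the only one tested. STZ+AOS library 3 stood apart in 4 others, with 36.45 RPKM of Ctrb1, 7.74 of Prss2, 7.23 of Pnlip and 3.31 of Cpa1, each at most 0.61 RPKM in the other 17 libraries. The part of these shifts in the results was not tested, and in whole tissue fewer cells of a type and less RNA per cell cannot be told apart.

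**Figure D1:**
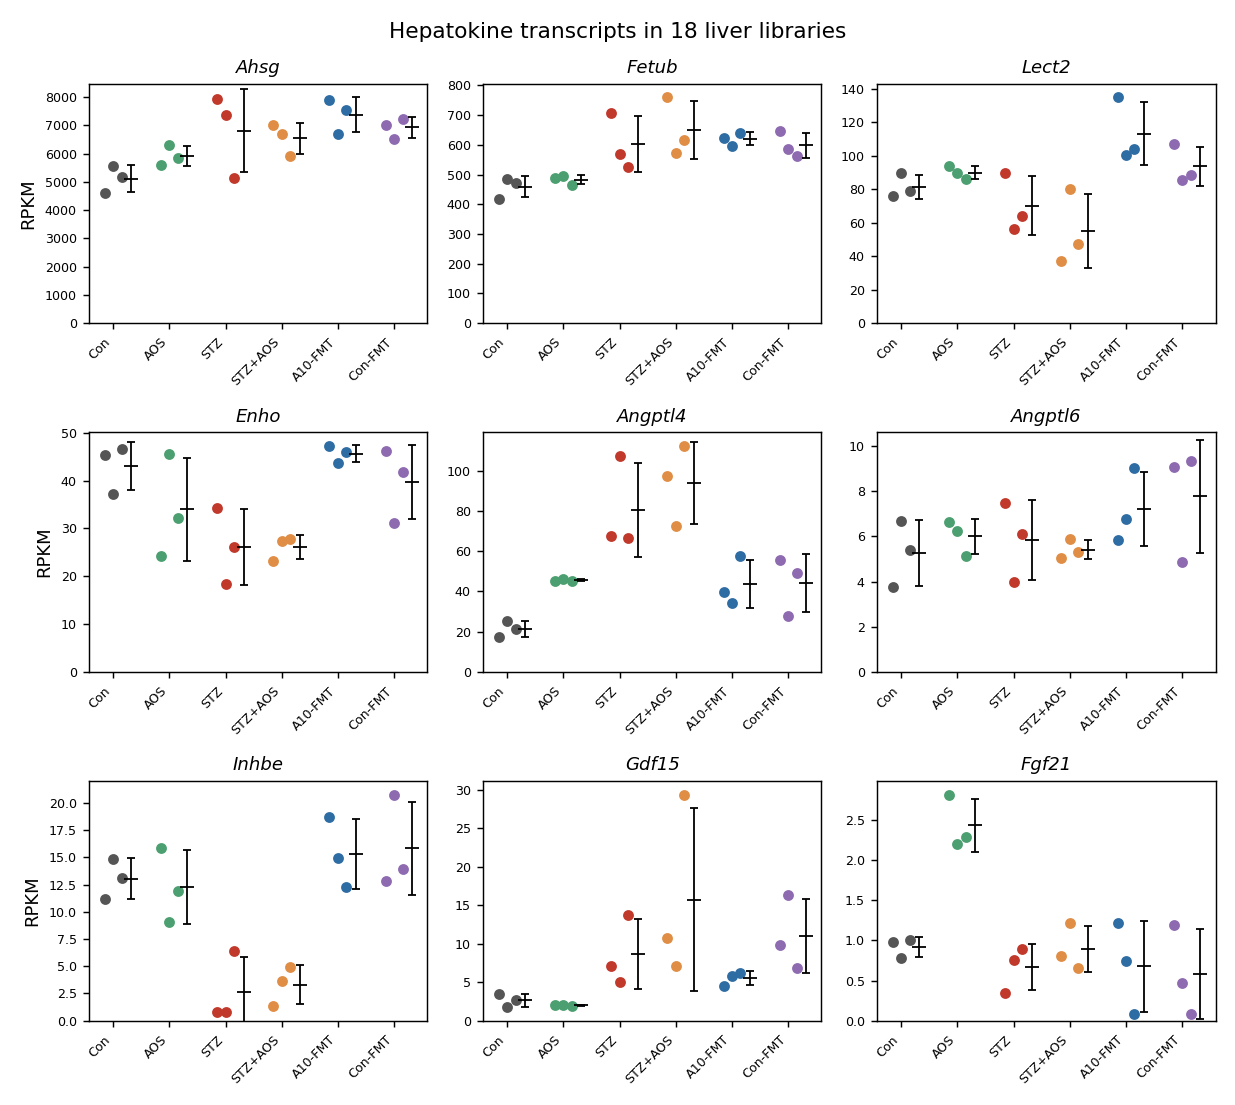
RPKM of the 9 hepatokine genes (vertical axes, starting at 0) in the 6 groups. Each coloured point is a library, and the black mark beside it gives the mean ± SD of 3 libraries, with bars ending at 0 where they would pass it. The 6 STZ and STZ+AOS libraries are the lowest for Inhbe and the highest for Angptl4, and the AOS libraries are the highest for Fgf21.

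On the RPKM scale the order of levels in Con was Ahsg (5120 ± 488, SD, n = 3), Fetub (459 ± 35.5), Lect2 (81.4 ± 7.14), Enho (43.1 ± 5.06), Angptl4 (21.2 ± 3.87), Inhbe (13.1 ± 1.85), Angptl6 (5.28 ± 1.46), Gdf15 (2.65 ± 0.874) and Fgf21 (0.92 ± 0.122). No neighbours in this order overlapped between Con libraries. In STZ the order was less distinct. Angptl4 (66.4 to 107 RPKM) overlapped Lect2 (56.2 to 89.8 RPKM), Angptl6 (3.98 to 7.47 RPKM) overlapped both Gdf15 (5.09 to 13.8 RPKM) and Inhbe (0.80 to 6.37 RPKM), and Inhbe overlapped Fgf21 (0.34 to 0.89 RPKM).

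The comparison of STZ with Con asked what the streptozotocin model does to the liver. It called 5 of 9 hepatokine genes: Angptl4, Gdf15 and Fetub were higher and Inhbe and Enho were lower. Of all genes tested 36.1% were called, 30.8% higher and 5.25% lower, so the share of members called lower (2 of 9) was above the share over the table and the share called higher (3 of 9) was near it. The median log2 difference was 0.12 for the members and 0.21 for all genes. That shift of the whole table depends on scaling: 3336 genes were higher and 568 lower as deposited, against 1318 and 1304 after median-ratio scaling, where the median of all genes was -0.0068. In the same way STZ+AOS against AOS called 6 of 9 members (37.9% of all genes), 3 higher (31.8%) and 3 lower (6.11%), with 3441 genes higher and 661 lower as deposited and 1323 and 1325 after median-ratio scaling. Without STZ+AOS library 3 Fgf21 lost its call and the other 5 members kept theirs. Averaged over both strata of AOS, the STZ effect called 7 of 9 members (55.6% of all genes), 3 higher (47.1%) and 4 lower (8.54%), with 5094 genes higher and 924 lower as deposited and 2202 and 2237 after median-ratio scaling. This averaged effect shares its libraries with the other comparisons and is no separate evidence.

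**Figure D2:**
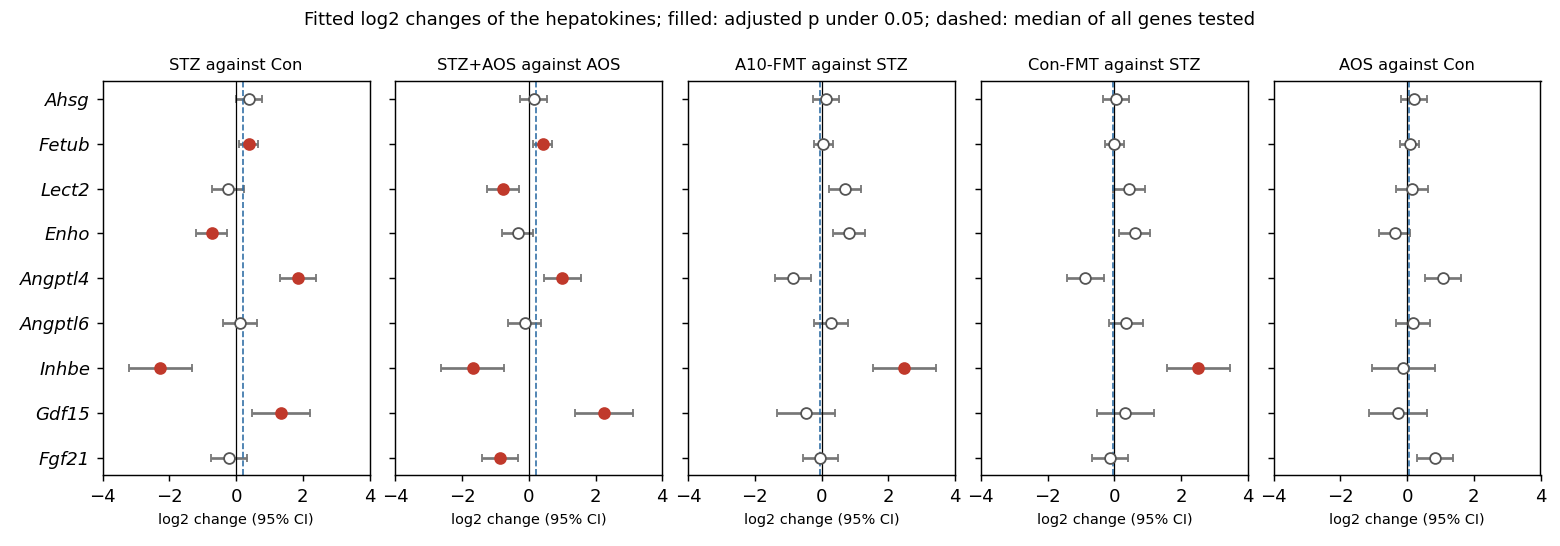
Fitted log2 differences (horizontal axes) of the 9 hepatokine genes in 5 comparisons, with 95% confidence intervals. Filled points passed an adjusted p of 0.05, and the dashed line is the median of all genes tested. Inhbe lies far below 0 in STZ against Con (-2.28) and far above 0 in A10-FMT and Con-FMT against STZ (2.48 and 2.51).

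Inhbe carried the largest difference among the members. The gene lies at chr10:127348857-127354411 on the minus strand (GRCm38), 1910 bases from Inhbc, which encodes the beta C subunit. Its 3 Con libraries held 11.19, 14.88 and 13.1 RPKM and its AOS libraries 15.83, 9.05 and 11.89. STZ libraries held 0.81, 0.8 and 6.37 RPKM and STZ+AOS libraries 1.37, 3.64 and 4.96. All 6 libraries with streptozotocin and no transplant lay below all 6 without it. The difference of STZ from Con was -2.28 (SE 0.44, limma with Benjamini-Hochberg adjustment, adjusted p = 0.00155), and without STZ library 3, the highest of its group, it was -2.95 (adjusted p = 1.74e-05). For STZ+AOS against AOS it was -1.69 (SE 0.44, limma, adjusted p = 0.00883).

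After the transplants Inhbe was at the level of Con. A10-FMT libraries held 18.73, 14.93 and 12.26 RPKM and Con-FMT libraries 12.81, 20.74 and 13.9. Each of these 6 values was above every STZ and STZ+AOS value and above the lowest Con value of 11.19. Both comparisons with STZ called Inhbe and no other member. A10-FMT exceeded STZ by 2.48 (SE 0.44, limma, adjusted p = 0.0364) and Con-FMT did by 2.51 (SE 0.44, adjusted p = 0.0387). Over all genes 0.490% were called in A10-FMT against STZ (0.166% higher) and 0.166% in Con-FMT against STZ (0.0462% higher), and these comparisons share the STZ libraries with each other and with STZ against Con. Both calls depend on which libraries are used: the differences lay between 2.14 and 3.19 with any 1 library left out, but the adjusted p went to 0.0635 and 0.144 without STZ library 1, to 0.213 and 0.226 without STZ library 2, to 8.29e-05 and 0.000104 without STZ library 3, to 0.109 to 0.138 without any 1 A10-FMT library, and to 0.188 and 0.158 without Con-FMT library 2 or 3. Against Con, Inhbe differed by 0.20 in A10-FMT (95% confidence interval -0.74 to 1.15) and by 0.24 in Con-FMT (-0.70 to 1.18).

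The other subunit genes gave a comparison within the family. Inhbc held 34.0 to 39.8 RPKM in Con and 16.1 to 22.5 in STZ, a difference of -1.02 (SE 0.18, limma, adjusted p = 0.000828). Inhba, which encodes the subunit of activin A, held 3.84 to 4.51 RPKM in Con and 1.01 to 1.79 in STZ, a difference of -1.11 (SE 0.23, limma, adjusted p = 0.00241). Both of the 2 other subunit genes tested were thus lower, beside 5.25% of all genes. Both stayed so after each of the 3 rescalings and without STZ library 3. In the transplant groups Inhbc held 26.3 to 32.7 RPKM (A10-FMT) and 23.1 to 27.6 (Con-FMT), above every STZ library and below every Con library, and its differences from STZ of 0.63 and 0.47 did not pass (limma, adjusted p = 0.107 and 0.182). Inhba held 0.59 to 1.47 RPKM with the AOS donors' microbiota and 1.03 to 2.48 in Con-FMT, and it was lower than Con in both (limma, -1.34, adjusted p = 0.00214, and -0.91, adjusted p = 0.0171). The transplant groups thus gave 3 patterns for 3 subunit genes of one family: Inhbe at the level of Con, Inhbc between STZ and Con, and Inhba at the level of STZ in A10-FMT. The differences between the genes were not tested.

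**Figure D3:**
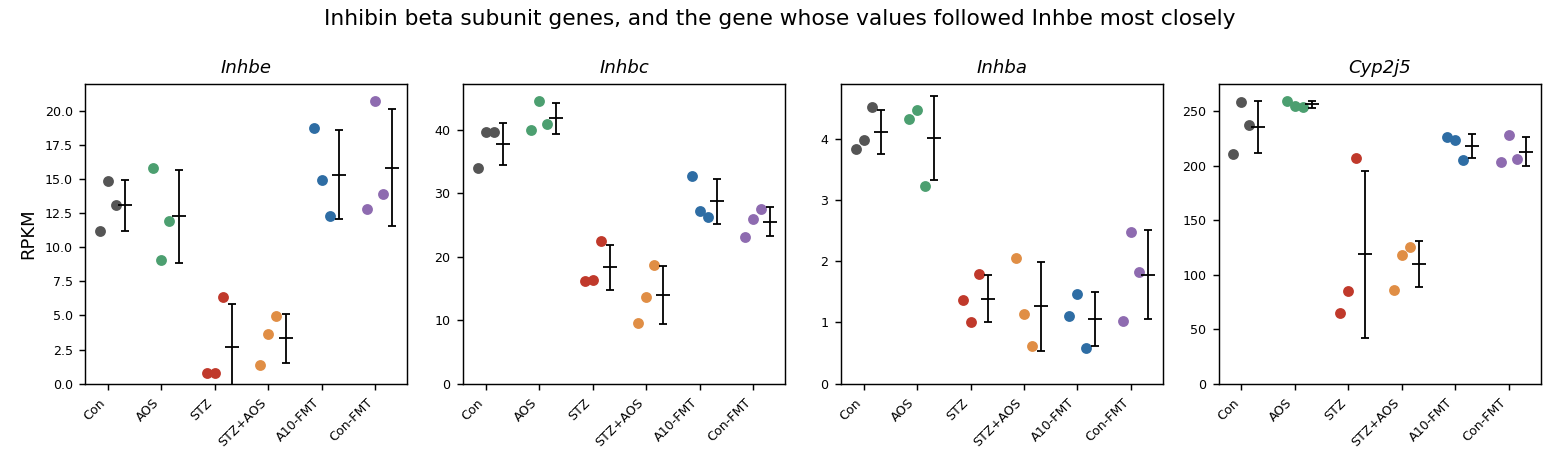
RPKM (vertical axes, starting at 0) of Inhbe, Inhbc and Inhba and of Cyp2j5, the gene whose values over the 18 libraries followed Inhbe most closely, in the 6 groups. Points are libraries and black marks are mean ± SD of 3 libraries, with bars ending at 0. Both FMT groups match Con for Inhbe (means of 15.3 and 15.8 against 13.1 RPKM) but lie under Con for Inhba (1.05 and 1.78 against 4.11 RPKM).

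The core of the element bound by ATF4, TGATGCAA or TTGCATCA on the other strand, stood in the RefSeq promoters (GRCm38.p6, 250 bases before to 50 after the start) of Fgf21 and Inhbe among the 7 of 9 members that had a promoter there. Of 32851 promoters of this length 0.895% held it. Angptl4 and Enho were not matched. The match began 139 bases before the start of Fgf21 and 181 bases before that of Inhbe. A match is a run of letters, not a site shown to be bound. The stretches of 30 bases around each match are shown from 5' to 3' on the strand of the gene with the core in capitals, so that both can be compared. The Fgf21 stretch (chr7:45615611-45615640, minus strand) lies outside the gene, and the Inhbe stretch (chr10:127352011-127352040, minus strand) lies in a noncoding part of an exon of the longer GENCODE M21 model, whose start is upstream of the RefSeq start.
Fgf21: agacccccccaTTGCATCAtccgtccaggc
Inhbe: catcctctttcTTGCATCAtgcatgtccac
The flanking bases differ. In STZ against Con Inhbe was called lower and Fgf21 was not, and in STZ+AOS against AOS both were called lower. Whether the 2 genes share a pattern across groups was not tested.

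Fgf21 was the lowest member. The gene lies at chr7:45613886-45615490 on the minus strand, and 1 read on its transcript of 951 bases was worth about 0.0814 RPKM, so that its values rest on about 1 to 35 reads per library. The 250 bases before its start (chr7:45615491-45615740, minus strand, RefSeq) are shown from 5' to 3' because they hold 3 of the motifs searched, in capitals in this order: the ATF4 core, the E-box CACGTG (7.15% of promoters) 50 bases before the start, and TATAAA (13.6% of promoters) 28 bases before it.
Fgf21 upstream: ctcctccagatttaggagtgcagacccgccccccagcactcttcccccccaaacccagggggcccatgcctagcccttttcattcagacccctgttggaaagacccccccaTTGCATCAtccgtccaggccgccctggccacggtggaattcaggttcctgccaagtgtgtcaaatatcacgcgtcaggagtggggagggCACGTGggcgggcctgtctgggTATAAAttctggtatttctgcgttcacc
The half-site AGGTCA of nuclear receptors (16.3% of promoters) was in the promoter of Gdf15 and in no other member matched, and its direct repeat with 1 base between, the form of a PPARA element (0.0396% of promoters), was in none. Both strands were searched, and no match says only that these letters are not in this window.

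Con libraries held 0.98, 0.78 and 1.0 RPKM of Fgf21 and AOS libraries 2.81, 2.2 and 2.29. STZ libraries held 0.34, 0.76 and 0.89 RPKM, STZ+AOS libraries 0.81, 1.21 and 0.65. The 3 AOS libraries lay above the other 15, while Con, STZ and STZ+AOS overlapped. A10-FMT libraries ranged from 0.08 to 1.21 RPKM and Con-FMT libraries from 0.08 to 1.19, with the lowest value of each near 1 read. AOS exceeded Con by 0.84 (SE 0.25, unadjusted p = 0.00451), which did not pass over all genes (limma, adjusted p = 0.524). The difference of STZ from Con was -0.22 (SE 0.25, limma, adjusted p = 0.513, 95% confidence interval -0.76 to 0.32). STZ+AOS was lower than AOS by -0.87 (SE 0.25, limma, adjusted p = 0.0146), a call that was lost with a pseudocount of 0.1 (adjusted p = 0.112) and without STZ+AOS library 3 (adjusted p = 0.0509). The average STZ effect of -0.54 (SE 0.18, limma, adjusted p = 0.0172) was also lost with that pseudocount (adjusted p = 0.102). The test of whether the STZ effect differed between animals with and without AOS gave -0.65 (SE 0.36, limma, adjusted p = 0.856).

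Klb, the co-receptor of FGF21, separated the groups. It held 3.29, 5.65 and 4.35 RPKM in Con and 16.31, 21.33 and 11.55 in STZ, with no overlap, a difference of 1.66 (SE 0.18, limma, adjusted p = 4.1e-05). STZ+AOS libraries held 12.96, 16.33 and 13.6 RPKM, within the STZ range. In the transplant groups its levels of 10.4 to 11.4 RPKM (A10-FMT) and 8.25 to 10.9 (Con-FMT) lay below every STZ library and above every Con library, and they exceeded Con by 1.15 and 0.95 (limma, adjusted p = 0.00121 and 0.00473). Fgfr2, a receptor gene, was higher in STZ by 0.70 (SE 0.19, limma, adjusted p = 0.0112), which was lost after each of the 3 rescalings (adjusted p = 0.0796 to 0.111). Of the 4 genes of the FGF21 system tested besides Fgf21, 2 were higher and none lower in STZ, beside 30.8% and 5.25% of all genes. After rescaling 1 was higher and 1 lower. Fgfr4, the main FGF receptor of hepatocytes, held 19.8 to 20.8 RPKM in Con and 19.9 to 20.8 in STZ.

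**Figure D4:**
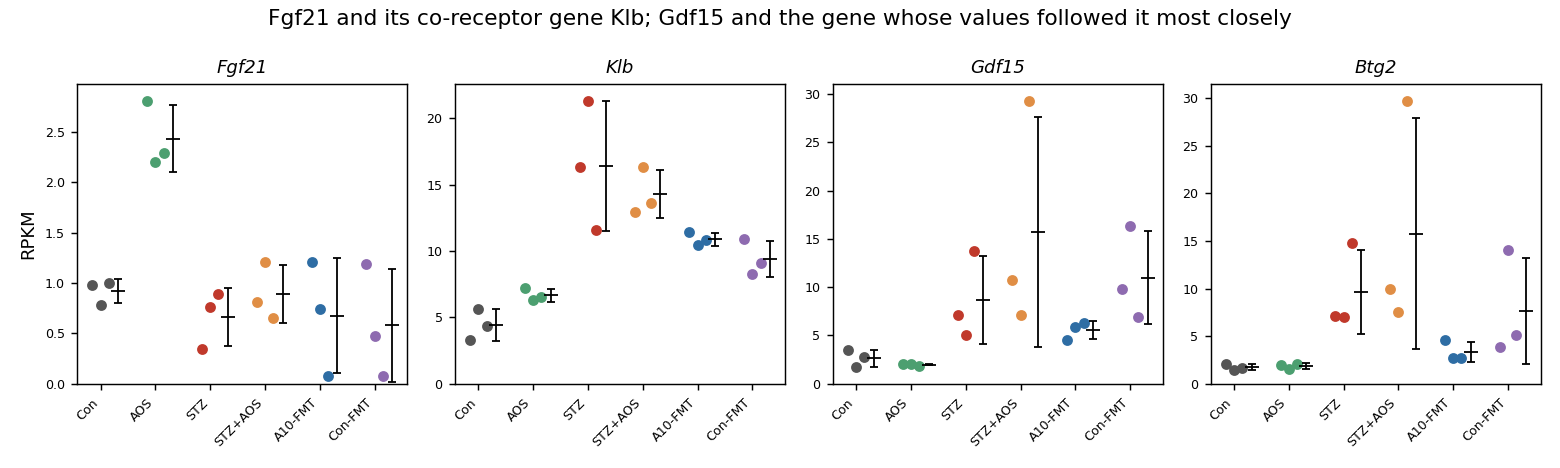
RPKM (vertical axes, starting at 0) of Fgf21, of its co-receptor gene Klb, of Gdf15 and of Btg2, the gene that followed Gdf15 most closely over the 18 libraries, in the 6 groups. Points are libraries and black marks are mean ± SD of 3 libraries. The highest Fgf21 values are those of AOS (2.2 to 2.81 RPKM) and Klb is highest in STZ (11.55 to 21.33 RPKM) and STZ+AOS (12.96 to 16.33 RPKM), which overlap.

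Gdf15 lies at chr8:70629393-70632456 on the minus strand. Con libraries held 3.47, 1.73 and 2.75 RPKM and AOS libraries 1.99, 2.06 and 1.88. STZ libraries held 7.13, 5.09 and 13.76 RPKM and STZ+AOS libraries 10.72, 7.14 and 29.33. All 12 libraries with streptozotocin, with or without a transplant, lay above all 6 without it, since A10-FMT held 4.52, 5.85 and 6.25 RPKM and Con-FMT 9.78, 16.31 and 6.86. STZ exceeded Con by 1.33 (SE 0.41, limma, adjusted p = 0.02). This call was lost without Con library 2 (limma, adjusted p = 0.0716) or STZ library 3 (adjusted p = 0.0743) and after the 3 rescalings (adjusted p = 0.0627 to 0.0692), with the difference between 0.98 and 1.62 with any 1 library left out. STZ+AOS exceeded AOS by 2.26 (SE 0.41, limma, adjusted p = 0.00103), and by 1.72 (adjusted p = 0.00295) without STZ+AOS library 3, the library with pancreatic enzymes, which held the 29.33 RPKM. The part of those enzymes in the result was not tested. Con-FMT exceeded Con by 1.67 (SE 0.41, limma, adjusted p = 0.0144; 0.0548 without Con-FMT library 1), and A10-FMT differed from Con by 0.86 (SE 0.41, limma, adjusted p = 0.154). All A10-FMT values were below all Con-FMT values, but the difference of -0.81 (95% confidence interval -1.68 to 0.06) did not pass (limma, adjusted p = 0.999). In the matched RefSeq promoters Gdf15 held AGGTCA 55 bases before its first start and the E-box CACGTG 83 bases before its second.

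Among the members Angptl4 had the lowest adjusted p in the STZ comparison. The gene lies at chr17:33773750-33781830 on the minus strand. Con libraries held 17.31, 25.04 and 21.28 RPKM, AOS libraries 45.08, 46.09 and 45.34. STZ libraries held 67.38, 107.35 and 66.43 RPKM and STZ+AOS libraries 97.17, 72.32 and 112.29. Con, AOS and the 6 libraries with streptozotocin and no transplant were thus 3 levels without overlap. STZ exceeded Con by 1.85 (SE 0.26, limma, adjusted p = 0.000179), a call kept in all 6 fits with 1 library left out and under all 10 other settings. AOS exceeded Con by 1.08 (SE 0.26, unadjusted p = 0.000749, limma, adjusted p = 0.386). STZ+AOS exceeded AOS by 1.01 (SE 0.26, limma, adjusted p = 0.00774), and the test of whether the STZ effect differed with AOS gave -0.85 (SE 0.37, unadjusted p = 0.0347, limma, adjusted p = 0.856).

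With transplants Angptl4 lay between Con and STZ. A10-FMT libraries held 39.58, 34.13 and 57.39 RPKM and Con-FMT libraries 55.66, 28.01 and 48.98. All 6 were above every Con library and below every STZ library. Both groups were higher than Con, by 0.99 and 0.98 (SE 0.26, limma, adjusted p = 0.0183 and 0.0192). Leaving out Con library 1, Con library 3 or A10-FMT library 3 took the first adjusted p to between 0.0533 and 0.0959, and leaving out Con library 1 or 3 or Con-FMT library 1 or 3 took the second to between 0.0544 and 0.107. Median-ratio scaling took the second to 0.0594, and quantile normalization took both past the threshold (0.079 and 0.0965). Against STZ the differences were -0.86 and -0.87 (SE 0.26, limma, adjusted p = 0.12 and 0.114), and without STZ library 3 they were -0.98 and -0.99 (adjusted p = 0.0466 and 0.0391). A10-FMT and Con-FMT differed by 0.0063 (95% confidence interval -0.54 to 0.56). Lipoprotein lipase, which ANGPTL4 inhibits, did not pass in STZ against Con (Lpl, 9.22 to 12.1 RPKM in Con and 11.1 to 27.1 in STZ, limma, adjusted p = 0.0671).

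Angptl6 (chr9:20873808-20879727, minus strand) held 3.76 to 6.68 RPKM in Con and 3.98 to 7.47 in STZ. Its highest values were in the transplant groups, with ranges of 5.86 to 9.02 RPKM (A10-FMT) and 4.88 to 9.35 (Con-FMT), and all groups overlapped. No comparison called it. STZ differed from Con by 0.12 (95% confidence interval -0.38 to 0.62), a sign that turned after rescaling. Neither Angptl2 nor Angptl8, other angiopoietin-like genes, was called in STZ against Con. Angptl2 held 1.71 to 3.03 RPKM in Con and 1.68 to 3.30 in STZ, and Angptl8, which acts on lipoprotein lipase, held 55.5 to 115 RPKM in Con and 31.8 to 49.1 in STZ (limma, -0.93, adjusted p = 0.107).

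The fetuin genes are neighbours. Ahsg lies at chr16:22891277-22899449 and Fetub at chr16:22918334-22939778, both on the plus strand and 18884 bases apart, and they are followed by Hrg, Kng2 and Kng1, which encode the other plasma proteins of the type 3 cystatin family (histidine-rich glycoprotein and the kininogens). Within 250 bases before their starts the longest run the 2 genes share on their own strand is 11 bases, found by looking for it and held by 13 of 32851 RefSeq promoters (0.0396%). It begins 80 bases before the start of Ahsg and 43 bases before the first start of Fetub. The 30 bases around it are shown from 5' to 3' with the shared run in capitals (Ahsg, chr16:22891926-22891955, in an intron of the longer GENCODE model; Fetub, chr16:22918330-22918359, across the start of a GENCODE transcript).
Ahsg: ccagagctgCTGTTTGCAAGgattatttgg
Fetub: tggcgcactCTGTTTGCAAGatataaaagg
In Fetub the bases after the run hold TATAAA, and in Ahsg they do not.

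Fetub libraries held 418.65, 485.27 and 473.04 RPKM in Con and 708.38, 569.97 and 527.08 in STZ, without overlap. AOS libraries held 486.77, 496.3 and 465.18 RPKM and STZ+AOS libraries 760.56, 571.15 and 617.69. The 6 transplant libraries held 564 to 646 RPKM, so that every library with streptozotocin lay above every library without it. STZ exceeded Con by 0.38 (SE 0.13, limma, adjusted p = 0.0369), STZ+AOS exceeded AOS by 0.42 (adjusted p = 0.0236) and A10-FMT exceeded Con by 0.44 (adjusted p = 0.0367). The median differences of all genes were 0.21, 0.21 and 0.16, and after median-ratio scaling the Fetub differences were 0.11, 0.17 and 0.23 (limma, adjusted p = 0.515, 0.307 and 0.238). The call in STZ against Con was also lost without Con library 1 or 3 or STZ library 1 or 2 (limma, adjusted p = 0.0652 to 0.166), that in A10-FMT against Con without any 1 of its 6 libraries (0.0509 to 0.147), and that in STZ+AOS against AOS without any AOS library or STZ+AOS library 1 (0.052 to 0.101).

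Ahsg, the most abundant member, held 4604, 5575 and 5180 RPKM in Con and 7936, 7380 and 5140 in STZ. STZ library 3 lay within the Con range, and the other STZ libraries lay above it. The difference of 0.39 (SE 0.19, limma, adjusted p = 0.11) passed without STZ library 3 (0.58, adjusted p = 0.00894). It also passed without the variance trend (0.39, limma, adjusted p = 0.0374). The rescalings gave unlike values for this abundant gene. Quantile normalization, which sets values by rank within a library, gave 1.25 (limma, adjusted p = 0.00577). Median-ratio scaling gave 0.12 (adjusted p = 0.617) and median centring 0.15 (adjusted p = 0.559). The part of the major urinary protein genes in the larger value was not tested. A10-FMT held 6695 to 7907 RPKM and Con-FMT 6530 to 7234, all above Con, with differences of 0.53 and 0.44 that did not pass (limma, adjusted p = 0.0618 and 0.109). Further along the cluster the differences were larger. Hrg held 464 to 487 RPKM in Con and 727 to 1180 in STZ (1.03, SE 0.22, limma, adjusted p = 0.0026). Kng2 held 127 to 149 RPKM in Con and 212 to 452 in STZ (1.26, SE 0.22, limma, adjusted p = 0.000848). Kng1 held 1036 to 1122 RPKM in Con and 1172 to 2232 in STZ (0.72, SE 0.24, limma, adjusted p = 0.0268), and lost its call after median-ratio scaling (0.45, adjusted p = 0.142). In each of these 5 genes STZ library 3 was the lowest STZ library. Kng1 and Kng2 are near-identical copies, so reads could be split between them, and their separate values are uncertain.

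**Figure D5:**
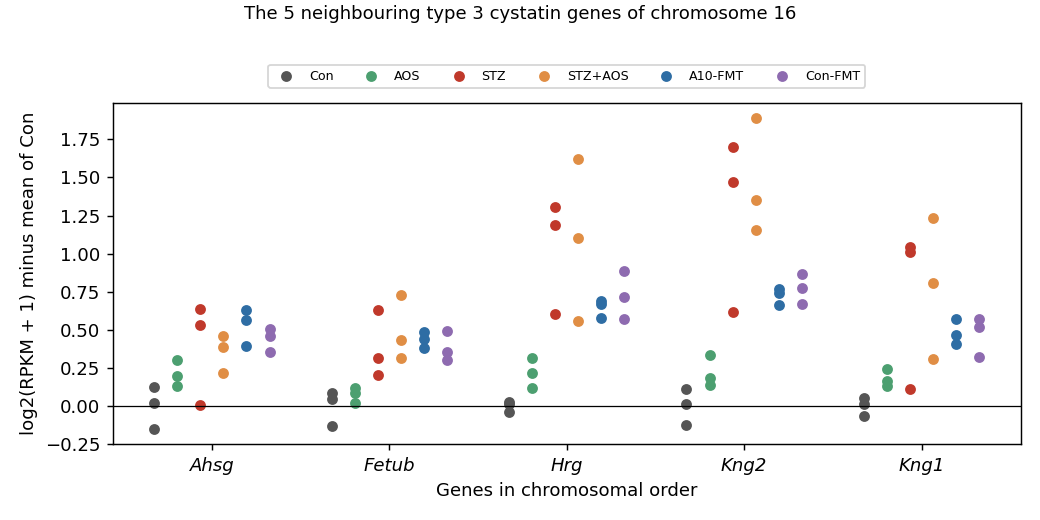
Log2(RPKM + 1) of each library minus the Con mean (vertical axis) for the 5 neighbouring type 3 cystatin genes in chromosomal order (horizontal axis). Points are libraries, coloured by group. STZ means lie higher above Con for Hrg and Kng2 (1.03 and 1.26) than for Ahsg and Fetub (0.39 and 0.38), and 1 STZ point, library 3, is at the bottom of its group in each gene.

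Lect2 (chr13:56542464-56548502, minus strand) held 75.73, 89.43 and 79.07 RPKM in Con, 93.89, 89.71 and 85.81 in AOS, 89.83, 56.18 and 63.9 in STZ and 37.3, 79.77 and 47.3 in STZ+AOS. STZ overlapped Con and STZ+AOS lay below AOS. STZ differed from Con by -0.24 (SE 0.22, limma, adjusted p = 0.414), and STZ+AOS was lower than AOS by -0.77 (SE 0.22, limma, adjusted p = 0.014; 0.0664 without STZ+AOS library 1). A10-FMT libraries held 134.83, 100.32 and 104.09 RPKM, all above every library outside the transplant groups. Con-FMT libraries held 106.63, 85.66 and 88.24. A10-FMT exceeded all STZ libraries, and the difference of 0.70 (SE 0.22, unadjusted p = 0.00648) did not pass over all genes (limma, adjusted p = 0.133).

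Enho (chr4:41638144-41640324, minus strand) held 45.23, 37.27 and 46.67 RPKM in Con and 34.16, 18.28 and 26.04 in STZ, without overlap. STZ was lower by -0.73 (SE 0.22, limma, adjusted p = 0.0182). This call was lost without Con library 1 (limma, adjusted p = 0.0606), Con library 3 (0.0627) or STZ library 2 (0.105). STZ+AOS libraries held 23.15 to 27.8 RPKM and AOS libraries 24.23 to 45.59, which overlapped, and the difference of -0.33 did not pass (SE 0.22, limma, adjusted p = 0.248). A10-FMT libraries held 47.21, 43.6 and 46.04 RPKM, above every STZ library, and Con-FMT libraries 46.21, 31.19 and 41.7. The differences from STZ of 0.82 and 0.61 did not pass (SE 0.22, unadjusted p = 0.00195 and 0.0144, limma, adjusted p = 0.0947 and 0.165).

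In the transplant comparisons 4 of 9 members (Inhbe, Angptl4, Enho and Lect2) had an unadjusted p under 0.05 in A10-FMT against STZ and 3 of 9 (Inhbe, Angptl4 and Enho) in Con-FMT against STZ, beside 2041 and 2030 of all 10822 genes. Against Con, each transplant group called 2 of 9 members, all higher: Angptl4 and Fetub in A10-FMT and Angptl4 and Gdf15 in Con-FMT. Over all genes 17.1% were called in A10-FMT against Con (14.7% higher) and 18.1% in Con-FMT against Con (16.3% higher), and both comparisons share the Con libraries. As deposited 1589 genes were higher and 259 lower in the first and 1768 and 193 in the second, against 553 and 476, and 383 and 333, after median-ratio scaling. The direct comparison of the 2 transplant groups called 0 members and 0% of all genes (limma, with 245 genes and 0 members at an unadjusted p under 0.05).

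AOS against Con called 0 members by limma, and 0.00924% of all genes (1 gene), with 2 members (Fgf21 and Angptl4) and 781 genes at an unadjusted p under 0.05. When only Con and AOS were fitted both members passed (limma, adjusted p = 0.0221). STZ+AOS against STZ called 0 members and 0% of all genes (limma, with 0 members and 657 genes at an unadjusted p under 0.05). The largest member differences there were 0.66 for Gdf15 (95% confidence interval -0.21 to 1.53) and 0.48 for Inhbe (-0.46 to 1.42). With 1 library left out they ranged from 0.12 (without STZ+AOS library 3) to 1.07 (without STZ+AOS library 2) for Gdf15 and from 0.14 (without STZ library 2) to 1.16 (without STZ library 3) for Inhbe, and neither passed in any of these fits. The interaction of AOS with STZ called 0 members and 0% of all genes (limma, with 1 member, Angptl4, and 584 genes at an unadjusted p under 0.05).

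Other genes of the pathways were counted in STZ against Con from lists. Of all 10822 genes tested 30.8% were higher and 5.25% lower, and after median-ratio scaling 1318 genes were higher and 1304 lower. The count of each list stands beside these shares. Known PPARA targets were mostly higher: 21 of 26 were higher and 1 lower, with a median of 1.15 against 0.21 for all genes. Cyp4a10 and Cyp4a14, omega-hydroxylases of fatty acids, held 1.29 to 2.77 and 0.2 to 0.57 RPKM in Con and 696 to 1264 and 409 to 1111 in STZ (limma, adjusted p = 3e-07 and 2.1e-06), and Acot1, an acyl-CoA thioesterase, 4.19 to 9.69 and 29.97 to 48.5 (2.24, adjusted p = 0.000136). Fabp1, the liver fatty acid binding protein, was lower (-1.52, limma, adjusted p = 0.022). This abundant gene lost its call after quantile normalization (-0.85, adjusted p = 0.263) and kept it after median-ratio scaling (-1.79, adjusted p = 0.015). After median-ratio scaling 19 of 26 were higher and 1 lower. In A10-FMT against STZ 2 of 26 were lower (0.323% of all genes), Acot1 (-1.52, limma, adjusted p = 0.0364) and Vnn1, a pantetheinase (-1.25, adjusted p = 0.0448). In Con-FMT against STZ 0 of 26 were lower (0.12% of all genes). The members on which PPARA is known to act, Angptl4 and Fgf21, stood apart from each other, with differences of 1.85 and -0.22.

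Known ATF4 targets gave 8 of 18 higher and 1 lower, with a median of 0.50 against 0.21 for all genes, and 5 higher and 1 lower after median-ratio scaling. Trib3, a pseudokinase induced by stress, held 1.32 to 1.65 RPKM in Con and 8.22 to 17.9 in STZ (2.501, limma, adjusted p = 0.000863). Vldlr, the very low density lipoprotein receptor, and Cth, cystathionine gamma-lyase, were higher by 1.67 and 1.56 (limma, adjusted p = 4.5e-05 and 0.0005), and Mthfd2, a mitochondrial folate enzyme, was lower by -0.69 (adjusted p = 0.00531). Atf4 itself held 68.4 to 76.2 RPKM in Con and 75.9 to 95.9 in STZ, which overlapped (0.23, limma, adjusted p = 0.188).

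Of 27 transcription factors known to act on hepatokine genes 10 were higher and 2 lower (median 0.30 against 0.21). After median-ratio scaling 3 were higher and 3 lower. These shares were near those of all genes. Ppargc1a, the coactivator of gluconeogenesis and fatty acid oxidation, held 0.56 to 0.77 RPKM in Con and 2.98 to 8.84 in STZ (1.86, limma, adjusted p = 0.00033). Nfe2l2, the factor NRF2 of the oxidative stress response, and Nr1h2, the oxysterol receptor LXR beta, were higher by 0.77 and 0.54 (limma, adjusted p = 0.00119 and 0.00322). Ppard, the nuclear receptor PPAR delta, held 15.97 to 18.7 RPKM in Con and 2.31 to 5.36 in STZ (-2.09, limma, adjusted p = 1.47e-05), and Mlxipl, the carbohydrate-response factor ChREBP, was lower by -0.61 (adjusted p = 0.0137). Ppara overlapped between the groups (12.01 to 19.5 and 16.8 to 27.9 RPKM, limma, adjusted p = 0.254). Of 16 receptors and partners of hepatokines 5 were higher and 1 lower (median 0.25 against 0.21), and 2 were higher and 2 lower after median-ratio scaling. These shares too were near those of all genes. Besides Klb and Fgfr2 the genes called included Insr, the insulin receptor (0.66, limma, adjusted p = 0.00128), and Lmf1, which matures lipases (-0.33, adjusted p = 0.0155).

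Other factors secreted by liver gave 10 of 21 higher and 3 lower (median 0.57 against 0.21), and 8 higher and 4 lower after median-ratio scaling. Gpld1, a phospholipase of plasma, held 47.2 to 50.8 RPKM in Con and 85.5 to 146 in STZ (1.18, limma, adjusted p = 0.000103). Igfbp2, a binding protein of insulin-like growth factors, was higher by 2.68 and Smoc1 by 0.99 (limma, adjusted p = 0.000279 and 0.000417). Those lower were Inhbc, Inhba and Manf, a factor of the endoplasmic reticulum (-0.89, limma, adjusted p = 0.0309). Among 7 genes whose liver expression depends on insulin 4 were higher, a count kept after the 3 rescalings. Pck1, of gluconeogenesis, was higher by 2.76 (limma, adjusted p = 1.24e-05), as was Igfbp1, another binding protein of insulin-like growth factors, by 4.16 (adjusted p = 0.000891).

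The genes whose values were most like each member over the 18 libraries are given as a description (Pearson r across libraries on log2(RPKM + 1), which share depth and group differences). Inhbe was followed most closely by Cyp2j5 (r = 0.944), Ugt3a1 (0.942) and Srd5a1 (0.929). Cyp2j5 held 211 to 259 RPKM in Con and 65.1, 85.1 and 207 in STZ, the last in STZ library 3, which was also the highest STZ library for Inhbe. Angptl4 was followed by Nfkbia (0.956), Ccny (0.941) and Ncstn (0.94), and Gdf15 by Btg2 (0.92), Urb2 (0.907) and Usp16 (0.904). Btg2 was highest in the same STZ+AOS library as Gdf15, number 3, with 29.7 RPKM. Fgf21 was followed by Mcu (0.842), Kank1 (0.813) and Fignl2 (0.811). For Ahsg they were Lage3 (0.896), Trappc2l (0.895) and Psmb1 (0.892), and for Fetub Whamm (0.935), Rpsa (0.93) and Cdc16 (0.922). Lect2 was followed by Gamt (0.92) and Fbxl21 (0.913), Angptl6 by Colec11 (0.859), Osgep (0.835) and Cdc23 (0.83), and Enho by Nrep (0.789), Cdca3 (0.762) and Fam25c (0.76). Among the members themselves the closest were Ahsg and Fetub (r = 0.80), and the most opposed were Angptl4 and Inhbe (r = -0.718). With the group means removed these were 0.648 and -0.341, and the most opposed were then Ahsg and Inhbe (r = -0.768).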

How the data were processed

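Liver RNA of 18 libraries was sequenced by the study. The authors deposited RPKM per gene symbol. The study's methods name SOAPaligner, while the submitters' processing notes list Bowtie 0.12.2 and mm10, and library totals were not given in the sources used here. RPKM were transformed to log2(RPKM + 1), and a gene was kept when 3 or more libraries reached 1 RPKM (10822 of 19057). Groups were compared with limma 3.58.1 (R 4.3.3), in 1 model of the 6 groups with an intensity trend, two-sided, with Benjamini-Hochberg adjustment over all genes tested, and the code was tested on simulated data. Every member was named, as were the 3 genes with the highest Pearson r to each and, from each pathway list, at most 3 higher and 3 lower genes by smallest adjusted p in STZ against Con. Fgfr4, Lpl, Angptl2, Angptl8, Atf4, Ppara and Vnn1 fall outside this rule and were chosen after their values were seen. Members and lists were chosen with earlier results of these data known. Alternatives changed the pseudocount, filter, scaling, variance trend, groups fitted, replicate block and each library in turn. Counts of the lists after rescaling and without STZ library 3 were added after seeing the data. Positions came from GENCODE M21 and promoters from RefSeq, both GRCm38. Results for some genes that the naming rule covers are not reported here.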

Additional observations from a re-analysis of the deposited data

How the results depend on the processing

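Precision is limited by 3 libraries a group and, for Fgf21, by few reads. The number of members called in STZ against Con (5) was 3 after median-ratio scaling and after median centring, and 3 to 5 with 1 library left out. In A10-FMT against STZ it was 1, but 0 without the filter on low values, with at least 1 RPKM required in every library (where Inhbe itself is not tested), in a fit of only the 4 groups of the study's methods and in one of only the groups compared, and 0 to 2 with 1 library left out. In Con-FMT against STZ it was likewise 1, and 0 under those settings and with a pseudocount of 0.1, and 0 to 2 with 1 library left out. In A10-FMT against Con (2) it was 1 without the filter and after median-ratio scaling or median centring, 0 after quantile normalization, 5 in a fit of only the groups compared, and 0 to 1 with 1 library left out. In Con-FMT against Con (2) it was 1 after each of the 3 rescalings, 4 without the variance trend, and 0 to 3 with 1 library left out. In AOS against Con (0) it was 2 when only those groups were fitted. Signs were followed for only part of the member differences. Angptl4 between the transplant groups, which was near 0, was not among them. Of the differences followed, the sign turned for 3. Angptl6 in STZ against Con was -0.10 after quantile normalization, -0.11 after median-ratio scaling and -0.12 after median centring. With 1 library left out it was -0.069 to 0.33. Inhbe after quantile normalization was -0.024 in A10-FMT against Con and -0.0039 in Con-FMT against Con. The cause was not tested, beyond the fewer samples or genes that a setting itself removes.

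With the replicate block the number of members called was 5 in STZ against Con, 7 for the averaged STZ effect, 6 in STZ+AOS against AOS, 1 in each transplant group against STZ and 2 in each against Con, as without it. Over all genes the block gave 3808 calls in STZ against Con, against 3904. The numbers were not treated as pairs: 16 of 45 same-number pairs correlated above 0.1 (median r 0.0315), and 9 of 18 libraries correlated best with their own number.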
